A study of Mus musculus with 18 samples.

Results

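Nr4a1, Nr4a2, Nr4a3, Egr1, Egr2 and Egr3 are 6 genes whose RNA is rapidly induced when a T cell receives a signal through its antigen receptor. They were taken by symbol, and each matched 1 of the 55487 Ensembl gene IDs of the deposited tables. All 6 passed the filter on low values, which kept the 16694 genes whose organ mean reached 1 TPM somewhere. TPM is a transcript level per length, given as a share of the library's RNA, so levels of different genes can be compared within a library. Between libraries, a level also depends on the other RNA that each library holds. The cells were regulatory T (Treg) cells, CD4+ T cells defined by the factor Foxp3. They were sorted fresh from wild-type mice that had received no treatment. The 18 poly(A) RNA libraries came from spleen, lymph node, bone marrow, liver, lung and peripheral blood, with 3 libraries per organ. Age, sex, sorting gates, the digestion of each organ and the number of animals behind a library are not given in the labels.

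The Nr4a genes encode orphan nuclear receptors, which bind DNA without a known physiological ligand and are controlled mainly through how much of them is made. In T cells they follow the strength of the antigen receptor signal through calcium, calcineurin, NFAT and MEF2, and in Treg cells they help to maintain Foxp3. Nr4a1 (Nur77) is widely used as a reporter of recent receptor signalling, Nr4a2 (Nurr1) is best known from dopaminergic neurons, and Nr4a3 (Nor1) depends strongly on NFAT. The Egr genes encode zinc finger transcription factors that lie downstream of the Ras and MAP kinase arm and of serum response factor (SRF). Egr1 responds to many stimuli in most cell types, including mechanical and stress signals. Egr2 and Egr3 restrain T cell activation and are tied to anergy and tolerance.

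On the mouse assembly GRCm38, with GENCODE M21 gene models, Nr4a1 (ENSMUSG00000023034) lies at chr15:101254269-101274795 on the plus strand. Nr4a2 (ENSMUSG00000026826) lies at chr2:57106830-57124003 on the minus strand, and Nr4a3 (ENSMUSG00000028341) at chr4:48045153-48086447 on the plus strand. Egr2 (ENSMUSG00000037868) lies at chr10:67535475-67542188 and Egr3 (ENSMUSG00000033730) at chr14:70077203-70082614, both on the plus strand. The remaining member, Egr1 (ENSMUSG00000038418), is described by its levels alone. None of the 6 overlapped another annotated gene. Their reads are therefore not shared with an overlapping or antisense gene of that annotation.

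The 3 Nr4a genes are reached by calcium and cAMP signals through the cAMP response element (CRE), and their promoters are shown because all 3 RNAs were higher in liver and lung than in lymph node. The sequences are RefSeq windows on GRCm38.p6 from 250 bases before an annotated start to 50 after it, of which the bases before the first annotated exon are printed, 5′ to 3′ on the gene's strand. Capitals mark the CRE core, TGACG or its reverse complement CGTCA. The first stretch is chr15:101266596-101266845 (plus strand), the next chr2:57124004-57124253 (minus strand) and the last chr4:48045055-48045152 (plus strand). The Nr4a1 start used lies inside the span of the longer GENCODE gene model.
Nr4a1: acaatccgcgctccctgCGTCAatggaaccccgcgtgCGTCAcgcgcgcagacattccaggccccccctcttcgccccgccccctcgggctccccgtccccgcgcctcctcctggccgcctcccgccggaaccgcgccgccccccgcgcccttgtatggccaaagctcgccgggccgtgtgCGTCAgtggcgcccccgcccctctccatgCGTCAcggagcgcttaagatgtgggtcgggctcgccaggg
Nr4a2: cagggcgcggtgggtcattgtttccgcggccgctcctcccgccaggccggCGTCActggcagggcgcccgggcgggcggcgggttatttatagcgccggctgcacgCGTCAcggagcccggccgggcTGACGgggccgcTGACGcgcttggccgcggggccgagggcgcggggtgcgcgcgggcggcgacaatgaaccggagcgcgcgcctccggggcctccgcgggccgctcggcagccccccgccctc
Nr4a3: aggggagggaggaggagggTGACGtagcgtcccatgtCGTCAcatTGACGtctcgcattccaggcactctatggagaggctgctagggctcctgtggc
Each of the 3 full windows of 300 bases held 4 cores. In Nr4a3 the fourth lies beyond the printed bases, inside the first exon of the GENCODE model. Of 32851 promoter windows of that length in the table, 20.81% held at least 1 core and 0.23% held at least 4. In the Nr4a1 window, 2 of the cores lay within 69 bases upstream of the start. An Egr site (GCGGGGGCG or GCGTGGGCG, either strand) was found once, in the Nr4a1 window, and in 3.47% of all windows. No full CRE (TGACGTCA, in 1.79% of all windows) and no MEF2 site (CTA, 4 bases of A or T, TAG; in 0.56%) occurred in these 3 windows.

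For the Egr genes the classical element is the CArG box (CC, 6 bases of A or T, GG), which binds SRF. The table gives 5 windows for Egr2. The 3 that lie furthest downstream overlap and share 1 CArG box, a separate window upstream of them holds another, and the remaining window holds none. Of all windows in the table, 1.63% hold a CArG box; as the Egr2 windows overlap, their count is not set against that share. The stretch below is chr10:67537794-67537823 on the plus strand, upstream of 1 of its annotated starts, with the CArG box and a neighbouring CRE core in capitals.
Egr2: agtCCATATATGGgcagcgaCGTCAcgggt
The CArG box ends 63 bases upstream of the start of its window, and no Nr4a window held one. These matches describe letters in the reference and say nothing of which factors were bound in these cells.

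Depth and cell content differed between the organs. The smallest step between low TPM values, which is what 1 read is worth on a transcript of 1 kb, ranged over organ means from 0.0812 TPM (peripheral blood) to 0.379 TPM (liver), so liver was the shallowest. Foxp3 averaged between 88.6 TPM in peripheral blood and 239 TPM in lymph node, and Cd3e between 277 TPM in peripheral blood and 691 TPM in lymph node. RNA of other cells was present: 14 myeloid markers summed to 38578 to 38835 TPM in the bone marrow libraries, 26725 to 27608 in blood, 1863 to 1939 in lung, 649.8 to 782.7 in spleen, 306.6 to 507.2 in liver and 94.3 to 131 in lymph node, and all 14 averaged at least 1 TPM in bone marrow, blood, spleen and lung. Of the myeloid markers, Ccr2 alone averaged 43.7 TPM in lymph node and 130 in liver, and whether other cells carried it was not tested. On average, 6 erythroid markers summed to 11468 TPM in liver, 6419 in bone marrow and 74.4 in lymph node. In blood, 7 platelet markers summed to 2223 TPM and 6 cytotoxic markers to 482. The sum of 6 B cell markers was 543 TPM in blood, 485 in spleen, 476 in bone marrow and 73.2 in liver. In lung, 5 lung epithelium markers summed to 258 TPM. The part of these cells in the levels of the 6 genes was not tested. The summed level of 10 T and Treg cell markers was 4981 TPM in lymph node and 2019 TPM in blood. As TPM is a share of all RNA, the 8 T cell genes Cd3e, Cd3d, Cd3g, Cd247, Lck, Zap70, Lat and Cd28 were also used to rescale each library. Against lymph node, that rescaling took the median log2 difference of all genes from -0.15 to 0.80 in blood, from -0.20 to 0.37 in lung, from -0.004 to 0.63 in bone marrow, from -0.19 to 0 in liver and from -0.11 to 0 in spleen.

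All 6 genes differed among the organs by limma's moderated F test (adjusted p from 5.8e-17 for Nr4a1 to 1.5e-06 for Egr2), as did 68% of all genes tested. Nr4a1 ranked 6 of 16694 by p and Egr2 ranked 2570. Over 15 pairs of organs, 79 of the 90 member contrasts were called at an adjusted p under 0.05, against 33.8% of all gene and contrast pairs. The Nr4a genes took 43 of their 45 contrasts and the Egr genes 36 of 45. The families did not share 1 order of organs. Nr4a1 and Nr4a2 were highest in liver and Nr4a3 in lung, whereas Egr1 was highest in bone marrow, Egr2 in spleen and Egr3 in lymph node. In bulk RNA such as this, fewer cells making a transcript and less of it per cell cannot be told apart.

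**Figure D1:**
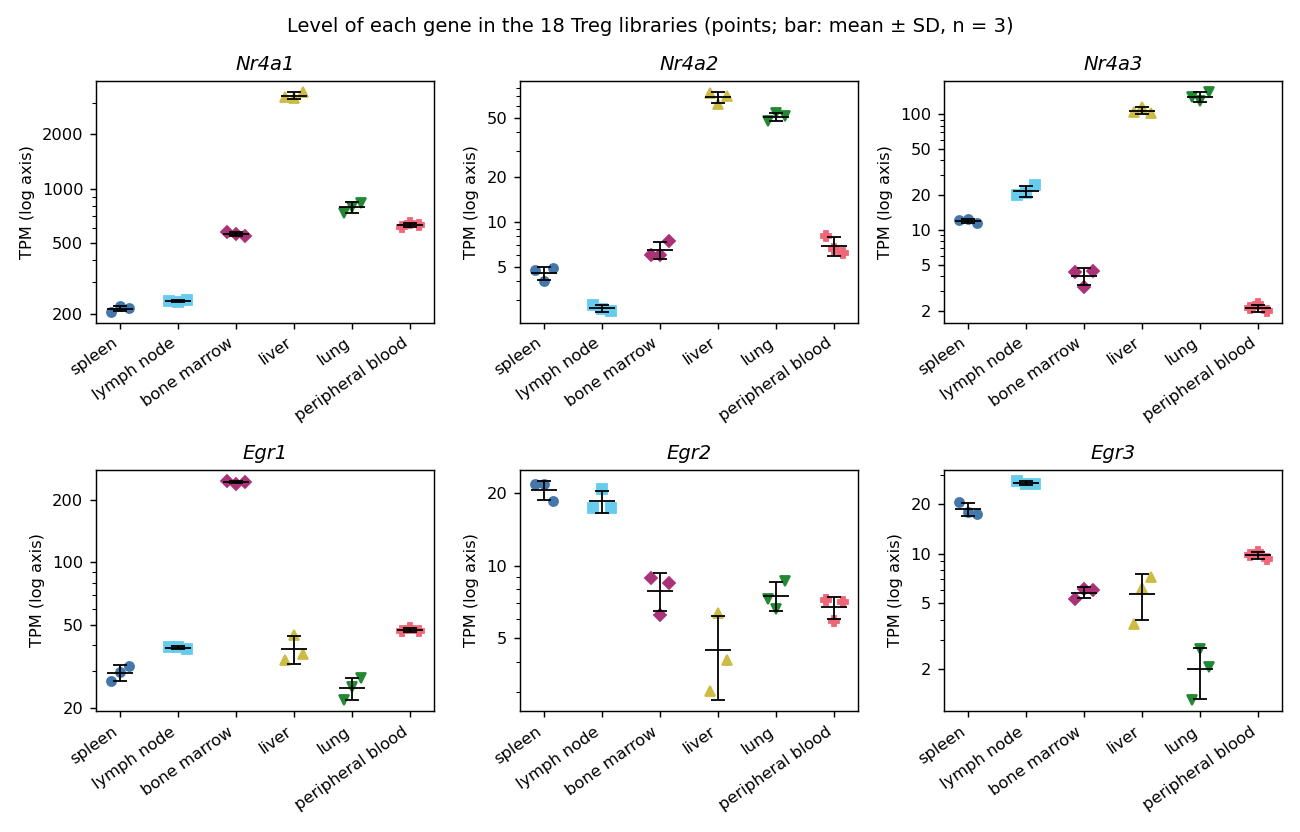
Level of each gene in TPM (log axis) in the 18 libraries, by organ. Points are single libraries and bars give the mean ± SD of 3. Liver stands alone at the top for Nr4a1 (3198 to 3444 TPM), liver and lung for Nr4a2 and Nr4a3, and bone marrow for Egr1 (240 to 247 TPM), while Egr2 and Egr3 are highest in spleen and lymph node.

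Nr4a1 was by far the most abundant of the 6 RNAs. In liver its 3 libraries stood at 3227, 3198 and 3444 TPM, and in lung at 731, 793 and 832 TPM. Peripheral blood gave 609, 645 and 627 TPM and bone marrow 569.8, 558 and 543 TPM. Lymph node gave 238, 233 and 239 TPM and spleen 206, 221 and 218 TPM. No organ's libraries overlapped those of another. The liver mean of 3290 ± 135 TPM (SD, n = 3) was 4.19 times that of lung and 15.3 times that of spleen. On the log2(TPM + 1) scale, the step from lung to liver was 2.07 (SE 0.05, adjusted p = 1.8e-13). The smaller steps of 0.32 from blood to lung (adjusted p = 3.7e-05) and 0.17 from bone marrow to blood (adjusted p = 0.012) also passed. The last was lost without bone marrow replicate 3 or peripheral blood replicate 2 (adjusted p = 0.052 and 0.051) and without trended, robust moderation (0.13). Spleen and lymph node were not told apart (0.14, 95% interval 0.04 to 0.24, adjusted p = 0.065). With the T cell rescaling, lung no longer exceeded blood: their means became 953 and 992 rescaled TPM (-0.06, adjusted p = 0.38).

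The liver libraries also carried the most heat shock RNA. The sum of 8 heat shock genes was 9313 to 10019 TPM in liver and 2156 to 3630 TPM over the other 15 libraries. Hspa1b, an inducible chaperone of the HSP70 family whose reads may be shared with its near-identical copy Hspa1a, averaged 2470 TPM in liver, then 315 TPM (bone marrow), 199 (lung), 39.2 (spleen), 10.8 (lymph node) and 8.81 (blood). The co-chaperone Dnajb1 averaged 259 TPM in liver and between 41.4 and 87.7 in the other organs, and Hsph1, a relative of HSP70, 508 TPM in liver and between 82.6 and 134 elsewhere. As deposited, blood held the lowest heat shock sum (2156 to 2227 TPM, against 2919 to 3050 in lymph node). Against lymph node, 1 of the 8 genes was called higher in blood and 5 lower, with 16.4% and 21% of all genes. With the T cell rescaling 8 were higher and 0 lower, where 97.4% of all calls were higher. The part of the heat shock response in the level of Nr4a1 was not tested.

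Nr4a2 had the same top organ at a far lower level. Liver gave 73.4, 61.9 and 70.5 TPM, lung 47.6, 53.7 and 51.6 TPM, and these 6 libraries were all above the other 12. Blood followed with 7.99, 6.52 and 6.16 TPM and bone marrow with 6.03, 5.95 and 7.45 TPM, and these 2 groups overlapped. Spleen gave 4.71, 4.0 and 4.89 TPM and lymph node 2.76, 2.60 and 2.50 TPM, the lowest of all. The mean in liver (68.6 ± 6.0 TPM, SD, n = 3) was 26.2 times that in lymph node, and the mean in lung 19.5 times. Lung exceeded blood, its nearest neighbour below, by 2.73 (SE 0.14, adjusted p = 2.1e-10). The difference between liver and lung was only 0.42 (adjusted p = 0.027). It was lost when liver replicate 1, liver replicate 3 or lung replicate 1 was left out (adjusted p = 0.071, 0.057 and 0.076). Library weights (0.32) and median-of-ratios scaling (0.051) also lost it, as did the T cell rescaling, which gave -0.10 (adjusted p = 0.61). Blood and bone marrow were not told apart (0.08, 95% interval -0.22 to 0.37, adjusted p = 0.75). Bone marrow was above spleen by 0.43 (adjusted p = 0.032), a call lost without bone marrow replicate 3, spleen replicate 1 or spleen replicate 2 (adjusted p = 0.14, 0.051 and 0.11). Median-of-ratios scaling (0.13), removal of mitochondrial, ribosomal, globin, platelet and myeloid genes (0.12) and a fit to these 2 organs alone (0.078) also lost it. Spleen was above lymph node by 0.61 (adjusted p = 0.0070).

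Nr4a3 separated the organs most widely of the 6 genes as a ratio of means. Lung gave 141, 130 and 156 TPM and liver 105, 116 and 103 TPM. Lymph node followed with 20.1, 20.9 and 24.4 TPM and spleen with 12.2, 12.5 and 11.5 TPM. Bone marrow gave 4.38, 3.24 and 4.40 TPM and blood 2.10, 2.28 and 1.98 TPM. No organ's libraries overlapped those of another. The lung mean of 142 ± 13.1 TPM (SD, n = 3) was 6.54 times that of lymph node and 67.2 times that of blood. All 15 pairs of organs were called for this gene. The smallest step, 0.40 from liver to lung (SE 0.12, adjusted p = 0.021), was lost without liver replicate 3 or lung replicate 3 (adjusted p = 0.055 and 0.077), with library weights (0.37) and with these 2 organs alone (0.060). Every other pair kept its call and direction in each alternative run. Bone marrow and blood were thus low for Nr4a3 and high for Nr4a1, in which both exceeded lymph node.

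Egr1 was highest in bone marrow and present in all organs. The bone marrow libraries held 247, 240 and 244 TPM, and no other library reached 50 TPM. Blood gave 46.8, 48.4 and 46.7 TPM, lymph node 39.3, 39.1 and 38.2 TPM and liver 33.9, 44.9 and 36.3 TPM. Spleen gave 26.9, 29.7 and 31.8 TPM and lung 21.7, 25.3 and 27.7 TPM. Lymph node fell within the range of liver, and spleen overlapped lung. The bone marrow mean of 244 ± 3.70 TPM (SD, n = 3) was 5.15 times that of blood and 9.79 times that of lung. The step from blood to bone marrow was 2.34 (SE 0.11, adjusted p = 1.8e-10). Blood and lymph node were not told apart as deposited (0.28, 95% interval 0.05 to 0.50, adjusted p = 0.051), but blood was above by 1.46 with the T cell rescaling (adjusted p = 4.4e-09). Lymph node and liver were not told apart (0.03, 95% interval -0.20 to 0.25, adjusted p = 0.90). Lung was below lymph node by 0.63 (adjusted p = 0.00018), a direction that turned with the T cell rescaling (0.17, adjusted p = 0.20). Lung and spleen were not told apart as deposited (adjusted p = 0.086), but that rescaling put lung above by 0.40 (adjusted p = 0.0044). Spleen was below liver by 0.36 (adjusted p = 0.017). That call was lost without liver replicate 2 or spleen replicate 1 (adjusted p = 0.068 and 0.072). It was also lost without the bone marrow and blood libraries (0.081) and with these 2 organs alone (0.17).

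Myeloid RNA was also highest in the bone marrow libraries. Elastase (Elane) and myeloperoxidase (Mpo), granule enzymes of neutrophil precursors, averaged 366 and 535 TPM in bone marrow, and at most 2.37 and 6.0 TPM in any other organ. As deposited, blood held 27197 TPM of the 14 myeloid markers on average with 47.3 TPM of Egr1. Lymph node held 109 TPM of them with 38.9 TPM of Egr1. With the T cell rescaling, Egr1 averaged 74.8 rescaled TPM in blood and 26.6 in lymph node. Within the myeloid list the kinds of marker differed: Csf1r, the receptor of monocytes and macrophages, averaged 24.8 TPM in bone marrow and 206 TPM in blood. The part of these cells in the Egr1 level of bone marrow was not tested.

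Egr2 and Egr3 had a different geography, with spleen and lymph node on top. Egr2 stood at 21.7, 21.7 and 18.5 TPM in spleen and 17.3, 20.7 and 17.4 TPM in lymph node, and these organs overlapped. Bone marrow gave 8.90, 6.27 and 8.47 TPM, lung 7.28, 6.61 and 8.65 TPM and blood 7.22, 5.92 and 7.08 TPM, and these 3 organs overlapped one another. Liver was lowest with 3.02, 6.36 and 4.06 TPM. The spleen mean of 20.6 ± 1.86 TPM (SD, n = 3) was 4.60 times the liver mean of 4.48 ± 1.71 TPM. The drop from lymph node to bone marrow, its next neighbour, was 1.14 (SE 0.21, adjusted p = 0.00055). Spleen and lymph node were not told apart (0.15, 95% interval -0.28 to 0.59, adjusted p = 0.75), nor bone marrow and lung (0.06, 95% interval -0.38 to 0.49, adjusted p = 0.87), nor lung and blood (0.14, 95% interval -0.30 to 0.57, adjusted p = 0.64). The difference between blood and liver (0.54, adjusted p = 0.048) was near the threshold and kept its call in only 9 of 28 alternatives. It was lost in 14 of the 18 fits that left out 1 library, with adjusted p-values of 0.052 to 0.19. At the depth of liver these levels stand for about 23.9, 41.7 and 30.2 reads on the longest transcript. With the T cell rescaling, Egr2 was no longer called below lymph node in lung (-0.43, adjusted p = 0.096), bone marrow (-0.41, adjusted p = 0.10) or blood (-0.23, adjusted p = 0.36).

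Egr3 was highest in lymph node, at 27.6, 26.5 and 26.2 TPM, and next in spleen at 20.5, 17.9 and 17.3 TPM. Blood gave 9.79, 10.3 and 9.23 TPM and bone marrow 5.29, 6.13 and 6.05 TPM. Liver gave 3.78, 6.21 and 7.22 TPM, a range that held bone marrow. Lung was lowest with 1.30, 2.66 and 2.08 TPM, about 21.5, 43.3 and 31.6 reads. The lymph node mean of 26.7 ± 0.720 TPM (SD, n = 3) was 13.3 times the lung mean of 2.01 ± 0.682 TPM. Lymph node and spleen differed by 0.51 without passing the threshold (95% interval 0.08 to 0.94, adjusted p = 0.12). Spleen exceeded blood by 0.86 (adjusted p = 0.0032), which the T cell rescaling turned (means of 15.5 rescaled TPM in blood and 14.2 in spleen, adjusted p = 0.65). Blood exceeded bone marrow by 0.66 (adjusted p = 0.020), a call lost without bone marrow replicate 1, peripheral blood replicate 1 or peripheral blood replicate 2 (adjusted p = 0.073, 0.054 and 0.064). Liver exceeded lung by 1.15 (SE 0.20, adjusted p = 0.00036), which a fit to these 2 organs alone did not call (0.081). Egr4, the remaining gene of the family, averaged at most 0.637 TPM in any organ, in lung, where 1 of 3 libraries held all of it.

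Lymph node, whose libraries held the lowest myeloid sum, served as a common reference. It was not lowest for every kind of other cell. The 6 B cell markers summed to 134.5 TPM on average in lymph node, 120 in lung and 73.2 in liver. As the 5 contrasts share the 3 lymph node libraries, they are not independent. In liver, Nr4a1, Nr4a2 and Nr4a3 were higher by 3.79, 4.26 and 2.26, while Egr2 and Egr3 were lower by 1.87 and 2.08 and Egr1 was not called. That made 3 members higher and 2 lower, with 9.45% of all genes called higher and 21.6% called lower. In lung the same 3 Nr4a genes were higher, by 1.73, 3.84 and 2.66, and all 3 Egr genes were lower, by 0.63, 1.19 and 3.23, with 14.9% of all genes higher and 27.4% lower. In bone marrow Nr4a1, Nr4a2 and Egr1 were higher, by 1.23, 1.04 and 2.62, and Nr4a3, Egr2 and Egr3 lower, by 2.19, 1.14 and 2.03, with 13.7% of all genes higher and 8.89% lower. In blood Nr4a1 and Nr4a2 were higher, by 1.40 and 1.12, and Nr4a3, Egr2 and Egr3 lower, by 2.86, 1.33 and 1.37, with 16.4% of all genes higher and 21% lower. In spleen Nr4a2 was higher by 0.61 and Nr4a3 and Egr1 lower by 0.80 and 0.39, with 4.44% of all genes higher and 9.87% lower. The Egr1 call in spleen was lost without any of lymph node replicates 1, 2 and 3 or spleen replicate 1 (adjusted p = 0.058 to 0.090), with median-of-ratios scaling (0.32) and with the T cell rescaling (0.22). Removal of mitochondrial, ribosomal, globin, platelet and myeloid genes (0.086) also lost it, as did leaving out the bone marrow and blood libraries (0.12). The split of calls over all genes depended on scale: of the genes called in blood against lymph node, 43.9% were higher as deposited, 64.4% with median-of-ratios scaling and 97.4% with the T cell rescaling. The same 3 shares were 30.4%, 51.7% and 62.9% in liver, 35.2%, 53.3% and 83.6% in lung, 60.6%, 66.2% and 97.4% in bone marrow and 31%, 67% and 61.4% in spleen.

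**Figure D2:**
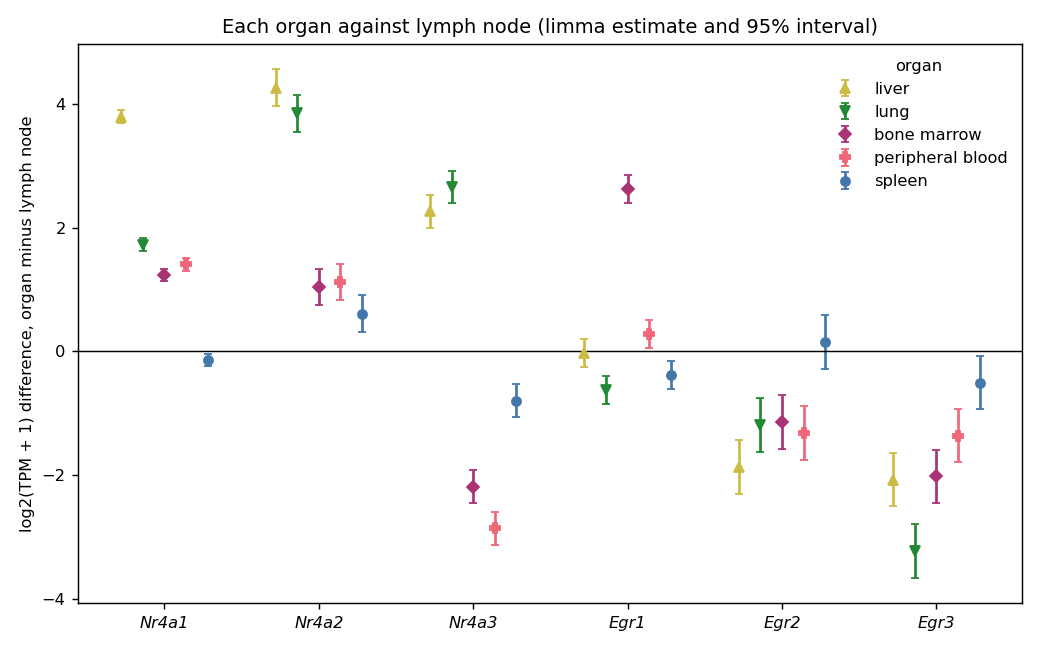
Difference of each organ from lymph node in log2(TPM + 1), with limma's estimate and its 95% interval, for each of the 6 genes. In liver and lung the Nr4a genes lie between 1.73 and 4.26 above 0, while Egr2 and Egr3 lie between 1.19 and 3.23 below it in the same organs.

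A ratio of 2 genes within a library is free of the scaling of that library, but not of RNA from other cells that carry 1 of the 2 genes. Myeloid marker RNA was highest in bone marrow and blood (means of 38715 and 27197 TPM), and its part in the ratios there was not tested. Nr4a1 exceeded Nr4a3 by 5.54 ± 0.487 times in lung, 10.9 ± 1.07 in lymph node, 17.8 ± 1.00 in spleen, 30.6 ± 3.05 in liver, 142 ± 26.4 in bone marrow and 296 ± 17.8 in blood (ratio of TPM, mean ± SD, n = 3). Nr4a1 therefore made up 79.5% to 81.2% of the summed Nr4a RNA in the lung libraries and 98.4% to 98.7% in blood. Nr4a2 was below Nr4a3 in lymph node (0.122 ± 0.018), lung (0.360 ± 0.045), spleen (0.377 ± 0.054) and liver (0.641 ± 0.094), and above it in bone marrow (1.64 ± 0.235) and blood (3.26 ± 0.489). Nr4a1 exceeded Nr4a2 by 15.4 ± 0.677 times in lung, and by 47.8 to 92.3 times on average in the other organs.

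In the Egr family, Egr1 and Egr2 stood at a ratio of 1.45 ± 0.249 in spleen, 2.12 ± 0.206 in lymph node, 3.34 ± 0.437 in lung, 7.09 ± 0.946 in blood, 9.07 ± 2.08 in liver and 31.6 ± 5.76 in bone marrow. Egr1 made up 39.0% to 47.1% of the summed Egr RNA in spleen and 94.4% to 95.1% in bone marrow. Egr1 exceeded Egr3 by 1.45 ± 0.027 times in lymph node, by 13.2 ± 3.60 times in lung and by 42.1 ± 4.06 times in bone marrow. Egr2 exceeded Egr3 by 4.08 ± 1.56 times in lung, where the 3 libraries gave 5.60, 2.49 and 4.16, and stood between 0.69 and 1.37 times Egr3 on average in the other 5 organs. All 6 ratios differed among the organs by a permutation test of the log2 ratio of TPM + 1 (100000 resamples of the F statistic, 18 libraries). With 1 added to each TPM, the tested ratio is not wholly free of library scaling where a gene is low, as Egr3 in lung. The adjusted p was 2e-05 for Egr2 over Egr3 and 1e-05, the smallest these resamples can give, for the other 5. Over 21 alternatives the largest adjusted p was 0.00054, for Egr2 over Egr3.

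**Figure D3:**
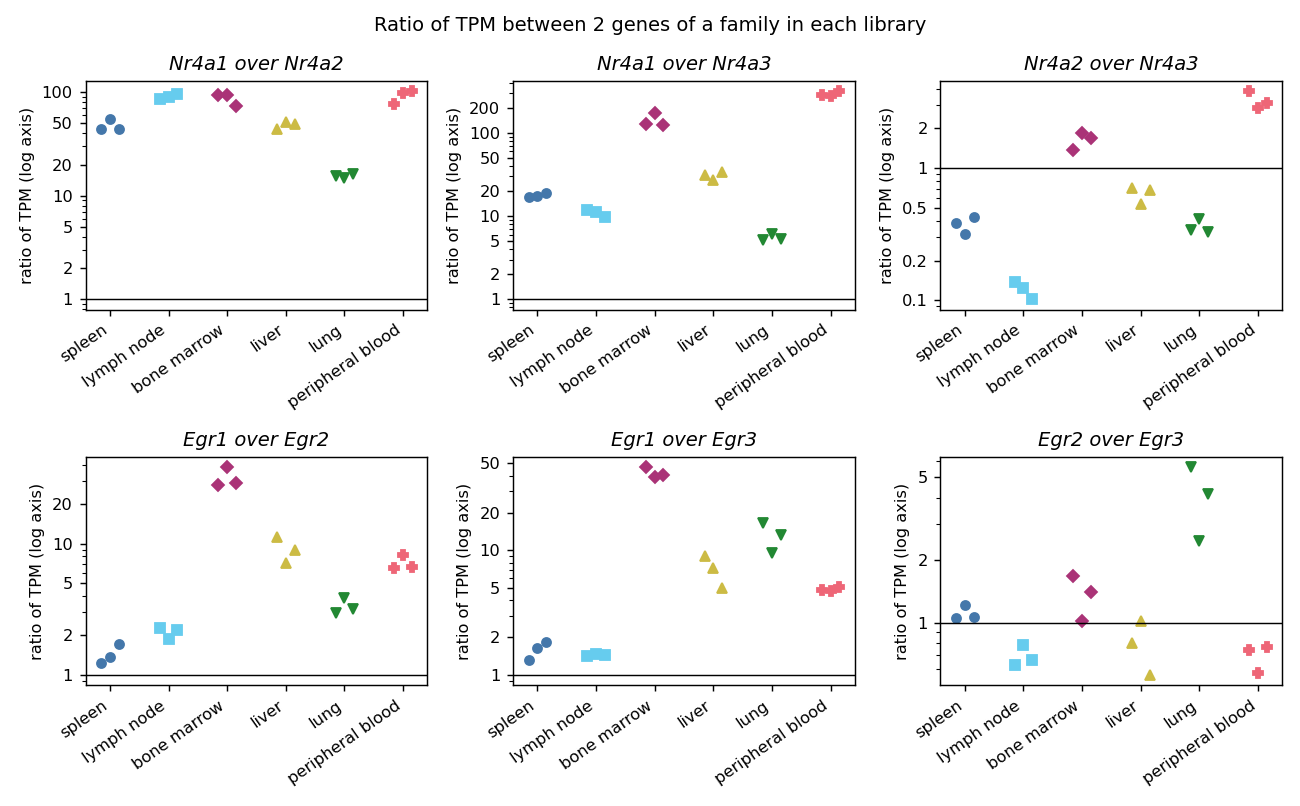
Ratio of TPM between 2 genes of a family (log axis) in each of the 18 libraries, by organ, with a line at 1. Nr4a2 over Nr4a3 crosses 1, lying below it in spleen, lymph node, liver and lung and above it in bone marrow and blood, and Egr1 over Egr2 and over Egr3 peaks in bone marrow.

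Across the 18 libraries, which fall into 6 groups of organs and share depth and cell content within each, the log2 levels of Nr4a1 and Nr4a2 moved together (Pearson r = 0.865, Spearman rho = 0.897). Nr4a2 and Nr4a3 gave r = 0.767 but rho = 0.373, and Nr4a1 and Nr4a3 gave r = 0.482 and rho = 0.420. Egr2 and Egr3 gave r = 0.732 and rho = 0.538. Between the families the values were mostly negative, with r = -0.893 for Nr4a1 and Egr2, -0.802 for Nr4a2 and Egr3, and 0.002 for Nr4a1 and Egr1. These values describe the libraries and carry no test.

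Genes upstream of the members split by scale. Of 18 genes of the NFAT, MEF2 and SRF arms, 17 differed among organs by the F test, which called 68% of all genes. Against lymph node 1 was higher and 8 lower in liver, 3 higher and 10 lower in lung, 3 and 4 in bone marrow, 5 and 8 in blood and 1 and 6 in spleen. The median difference was -0.37 in liver and -0.57 in lung, where the medians of all genes tested were -0.19 and -0.20. Calls over all genes also leaned lower in liver (9.45% higher, 21.6% lower), lung (14.9% and 27.4%), blood (16.4% and 21%) and spleen (4.44% and 9.87%), though not in bone marrow (13.7% and 8.89%). With the T cell rescaling these counts became 3 higher and 1 lower in liver, 8 and 5 in lung, 13 and 0 in bone marrow, 15 and 0 in blood and 1 and 2 in spleen. Mef2c and Mef2a, 2 MEF2 factors, were highest in blood at 31.1 ± 1.36 and 68.5 ± 3.74 TPM, against 5.13 ± 1.30 and 25.9 ± 1.13 TPM in lymph node. Mapk3, which encodes the kinase ERK1, averaged 94.4 ± 5.20 TPM in blood and 93.2 ± 3.11 in bone marrow, against 25.0 ± 5.58 in lung. Elk3, a partner of SRF, was highest in lymph node (45.7 ± 2.86 TPM) and lowest in lung (13.3 ± 2.23 TPM). Blood, where Mef2c, Mef2a and Mapk3 were highest, and bone marrow, where Mapk3 was nearly as high, held the most myeloid RNA, whose part was not tested. Mef2a in bone marrow (24.9 ± 2.09 TPM) was not told apart from lymph node (adjusted p = 0.93).

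A list of 16 partners, feedback genes and described targets of the families split in both directions. All 15 that passed the filter differed among organs, as did 68% of all genes. Against lymph node, 5 were higher and 6 lower in liver, 7 and 5 in lung, 4 and 5 in bone marrow, 3 and 6 in blood and 2 and 3 in spleen; with the T cell rescaling, 8 and 3, 9 and 3, 8 and 1, 13 and 2, and 1 and 1. As deposited, the medians were 0.19 in liver, 0.13 in lung, -0.14 in bone marrow, 0.17 in blood and -0.20 in spleen, against -0.19, -0.20, -0.004, -0.15 and -0.11 for all genes. The shares of all genes called higher and lower were 9.45% and 21.6% in liver, 14.9% and 27.4% in lung, 13.7% and 8.89% in bone marrow, 16.4% and 21% in blood, and 4.44% and 9.87% in spleen. Zeb2, a transcriptional repressor found in effector and myeloid cells, averaged 62.2 ± 3.91 TPM in blood and 1.04 ± 0.347 in lymph node. Spry2 and Spry1, inhibitors of the Ras and MAP kinase route, diverged: Spry2 was highest in blood (13.3 ± 1.52 TPM, 0.110 ± 0.026 in lymph node) and Spry1 in liver (23.0 ± 8.20 TPM, 2.51 ± 0.687 in blood). Fasl, the ligand of the death receptor Fas, averaged 35.3 ± 25.9 TPM in lung and 3.05 ± 0.586 in lymph node, with a wide spread in lung. Nab2, a corepressor that binds Egr proteins and is itself induced by them, was chosen here after its values were seen. It averaged 73.7 ± 3.14 TPM in lymph node, 48.4 ± 2.27 in spleen and 21.6 ± 1.16 in blood. Its relative Nab1, from the same list, was highest in lung, at 115 ± 17.97 TPM against 47.4 ± 5.23 in lymph node (1.25, adjusted p = 6.7e-06) and 39.2 ± 4.57 in spleen.

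Among 20 genes known to be induced by the antigen receptor in Treg cells, all differed among organs, as did 68% of all genes. Against lymph node, 14 were higher and 5 lower in lung (median 1.03, all genes -0.20), with 14.9% of all genes higher and 27.4% lower. In liver 11 were higher and 6 lower (median 0.45, all genes -0.19), with 9.45% and 21.6% of all genes. In blood 3 were higher and 15 lower (median -1.29, all genes -0.15), in bone marrow 4 and 12 (median -0.48, all genes -0.004), and in spleen 3 and 9 (median -0.13, all genes -0.11). Over all genes, 16.4% were higher and 21% lower in blood, 13.7% and 8.89% in bone marrow, and 4.44% and 9.87% in spleen. With the T cell rescaling the counts were 18 and 2 in lung, 13 and 2 in liver, 7 and 8 in blood, 11 and 5 in bone marrow and 3 and 7 in spleen. The inhibitory receptor Pdcd1 averaged 295 ± 17.3 TPM in lung, 140 ± 7.24 in liver and 4.66 ± 0.386 in blood. Tnfrsf9 (4-1BB), a costimulatory receptor, averaged 423 ± 16.5 TPM in lung, 62.1 ± 16.5 in liver and 8.98 ± 1.18 in blood, and Tigit, an inhibitory receptor, 453 ± 36.2, 318 ± 30.8 and 15.2 ± 1.83 TPM. These 3 share with Nr4a3 a maximum in lung and a minimum in blood, as do others of the 20 genes. In liver, Tnfrsf9 was below lymph node by 0.72 (adjusted p = 0.0028), whereas Nr4a3 was above it by 2.26. Lag3, another inhibitory receptor, was highest in lymph node instead, with 83.1 ± 1.28 TPM there, 30.02 ± 3.28 in spleen, 9.84 ± 1.93 in liver and again the least in blood (2.22 ± 0.761).

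The other immediate early genes, which many stimuli induce, were mostly higher than in lymph node. Of 22 such genes, 21 were higher than in lymph node in liver, 19 in lung, 20 in bone marrow, 15 in blood and 10 in spleen, and 0, 1, 0, 3 and 2 were lower. In the same order, 9.45%, 14.9%, 13.7%, 16.4% and 4.44% of all genes were higher and 21.6%, 27.4%, 8.89%, 21% and 9.87% lower. The medians of the 22 were 2.46, 1.76, 2.36, 1.42 and 0.37, against -0.19, -0.20, -0.004, -0.15 and -0.11 for all genes, and with the T cell rescaling the numbers higher were 21, 20, 22, 19 and 13. Fos averaged 2198 ± 12.9 TPM in bone marrow and 48.7 ± 0.455 in lymph node, with blood (844 ± 8.35), lung (486 ± 23.5) and liver (369 ± 55.3) between them. Fosb, its close relative, averaged 362 ± 5.16 TPM in bone marrow and 2.82 ± 0.040 in lymph node. Both were highest in bone marrow, as was Egr1. Fosl2, a further partner in the AP-1 factor, was highest in lung (370.2 ± 20.1 TPM, 3.13 ± 0.076 in lymph node), and Atf3, a stress-induced factor, in blood (84.3 ± 2.40 TPM, 0.657 ± 0.361 in lymph node). Bone marrow and blood, where Fos, Fosb and Atf3 peaked, held 38715 and 27197 TPM of myeloid markers on average against 109 TPM in lymph node, and the part of those cells was not tested. As deposited, Egr2 and Egr3 were lower than in lymph node in the 4 organs where most of these genes were higher; with the T cell rescaling Egr2 stayed called in liver alone and Egr3 in liver, lung and bone marrow.

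**Figure D4:**
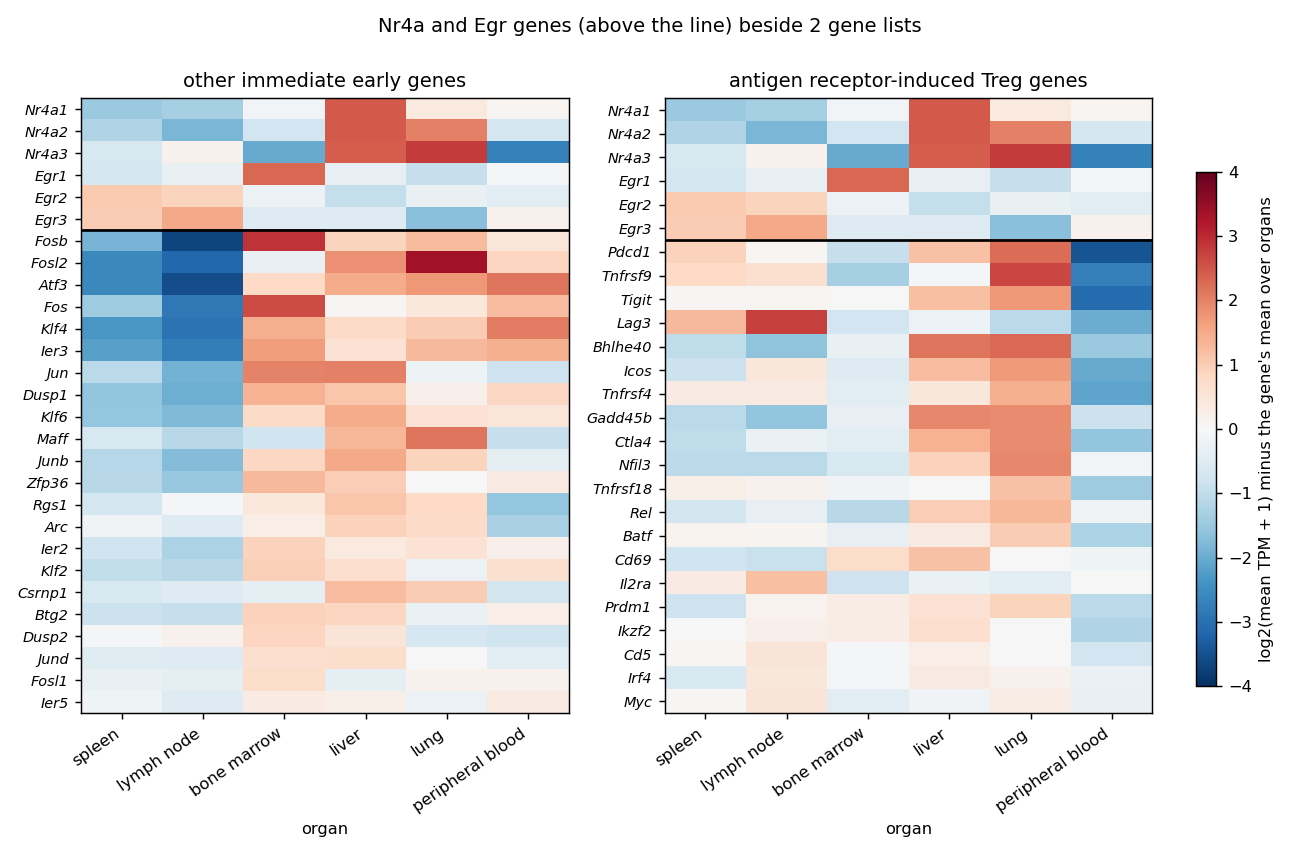
Organ means of the 6 genes (above the line) beside 22 other immediate early genes and 20 genes induced by the antigen receptor in Treg cells, as log2(mean TPM + 1) minus the gene's mean over the 6 organs. Red is above and blue below that mean. Egr1 peaks in bone marrow as Fos and Fosb do, and Nr4a3 is high in lung and low in blood as Pdcd1, Tnfrsf9 and Tigit are.

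The genes most like each member were ranked by Pearson r of log2(TPM + 1) over the 18 libraries, among 9612 genes whose organ mean reached 10 TPM somewhere. Nr4a1 was most like Slc38a2, an amino acid transporter (r = 0.955), followed by Chmp1b (0.937) and Snx5 (0.927). Nr4a2 was most like Ifrd1 (0.991), Gadd45b (0.983) and Coq10b (0.982). Ifrd1 averaged 743 TPM in liver, 687 in lung and between 45.6 and 83.9 in the other organs. Nr4a3 was most like Dusp4, a phosphatase that acts on MAP kinases (0.992), then Hopx (0.982) and Zbtb1 (0.981), and Dusp4 fell from 127 TPM in liver and 118 in lung to 4.80 in blood. Egr1 was most like Ctse (0.974), Epx (0.965) and Ear6 (0.962). Epx and Ear6 are eosinophil granule genes and were found almost only in bone marrow, at 13.9 and 14.5 TPM on average. Egr2 was most like Rpl10a-ps1 (0.929), Ephx1 (0.923) and Ergic1 (0.920), and Egr3 like Traf3ip3 (0.963), Scd2 (0.956) and Bin1 (0.956). With 6 organs behind 18 libraries, 1 organ that stands apart is enough to give a high r.

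**Figure D5:**
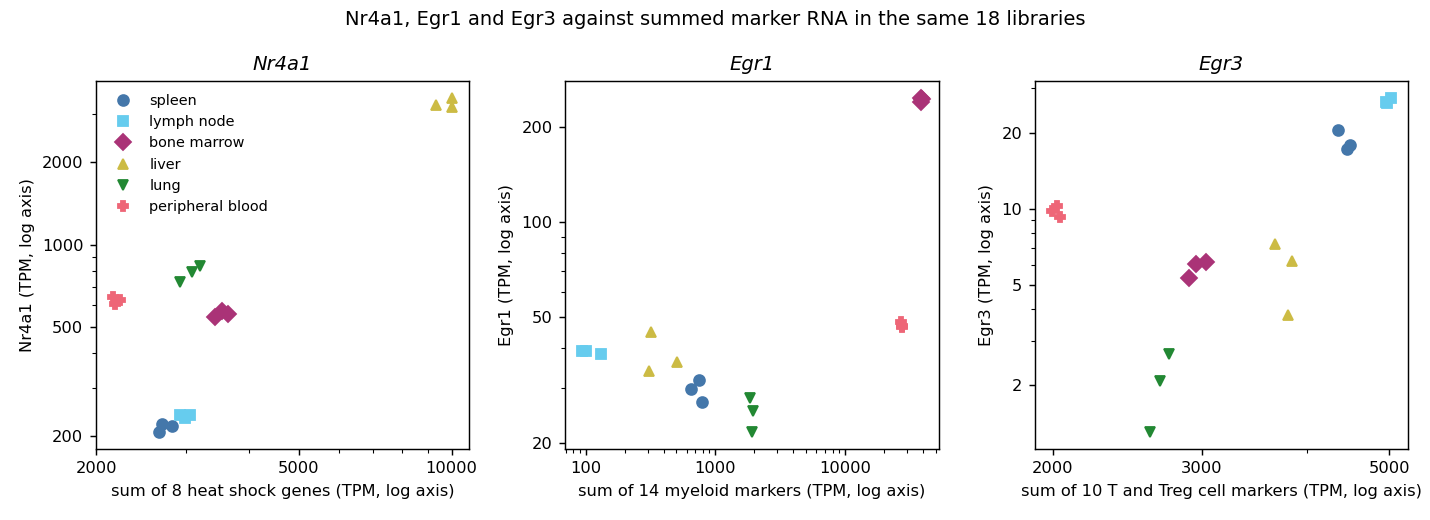
Nr4a1 against the sum of 8 heat shock genes, Egr1 against the sum of 14 myeloid markers and Egr3 against the sum of 10 T and Treg cell markers, in TPM on log axes, 1 point per library, coloured by organ. Liver stands apart for Nr4a1 with 9313 to 10019 TPM of heat shock RNA, and bone marrow and blood hold the 2 highest myeloid sums (means of 38715 and 27197 TPM) with 244 and 47.3 TPM of Egr1.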

How the data were processed

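For each library the authors deposited TPM values, to 2 decimals, of 55487 Ensembl gene IDs; STAR, RSEM and the build mm10 are named in the submitters' processing notes, without versions or settings, and strand use is not given in the sources used here. Symbols of GENCODE M21 matched 55141 IDs, and 346 had none. TPM keeps no read counts, so no count model was run; relative depth was taken from how low values are spaced (12062 genes), and 88.2% to 91.8% of low values then fell within 0.1 of a whole read.

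Log2(TPM + 1) values of all 18 libraries entered 1 limma 3.58.1 fit (R 4.3.3) with 6 group means and trended, robust moderation. Differences are on that scale and understate the change of low genes. Adjustment followed Benjamini and Hochberg, over all 16694 genes tested. Ratios within a family were compared by permutation, adjusted over 6 pairs. The labels do not state that replicates came from separate animals, so p-values measure the spread between these libraries, which may be technical. Members, lists and tests were chosen with earlier results of these data known. Of each list, up to 4 genes with the widest range of organ means among those past the F test were named, and 3 most alike per member. Alternatives changed the pseudocount, filter, scale, moderation, library weights, block and libraries used.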

Additional observations from a re-analysis of the deposited data

How the results depend on the processing

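All 6 members passed the F test in each of the 28 alternatives run, with adjusted p-values of at most 0.0071, the largest for Egr1. Of 90 member contrasts, 79 were called as reported. Other settings called 72 to 80, the fewest with the T cell rescaling and with only the 2 organs compared, and leaving out 1 library each called 75 to 80. Of the 79 calls, 58 kept call and direction in every alternative that gave a value, among them 14 for Nr4a3, 12 each for Nr4a1 and Nr4a2, 8 for Egr3, 7 for Egr1 and 5 for Egr2.

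Among contrasts called as reported or in the alternative, directions turned only with the T cell rescaling. That rescaling divides by RNA that itself differs between organs. The contrasts that turned were Nr4a1 lung minus blood (-0.059), Nr4a2 liver minus lung (-0.102), Egr1 lung minus spleen (0.40) and lung minus lymph node (0.17), and Egr3 blood minus spleen (0.115). A further 6 calls were lost under the T cell rescaling. Contrasts called in neither run could also change sign. Nr4a1 spleen minus lymph node did so in 2 of 29 alternatives and Egr1 liver minus lymph node in 4 of 29. Without blood and bone marrow, an alternative chosen after seeing the data, 6 members still passed the F test. With the replicate block, 79 contrasts were called; Egr2 liver minus blood was lost (adjusted p = 0.069) and Egr1 blood minus lymph node gained (0.047). Whether a number links libraries of different organs was not settled. Deviations of same-numbered libraries correlated weakly, at -0.067 to 0.085 over 45 pairs (median 0.015, against -0.006 for other pairs). Yet 13 of 18 libraries correlated best with their own number. Depth limits Egr2 in liver and Egr3 in lung, at 21.5 to 43.3 reads.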
